A study of Danio rerio with 12 samples.

Results

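Hearts of yap mutant zebrafish (Danio rerio) were compared 7 days after cryoinjury and 7 days after sham surgery. The comparison was made up of the 6 libraries that the labels give as yap -/-, out of 12 libraries in all: 3 from cryoinjured hearts (cryoinjury 1, 2 and 3) and 3 from sham hearts (sham 1, 2 and 3). The fish were 6 to 12 months old, whole hearts were collected, and all 6 libraries share the mutant genotype, so the mutation does not differ within the comparison. In the cryoinjured group the ventricle was touched with a steel probe cooled in liquid nitrogen. In the sham group the chest was opened in the same way and the ventricle was not frozen. The labels do not give the mutant allele, the sex of the fish, or whether a library came from 1 heart or from several. They also do not say that replicates were separate animals, so that the p-values speak of the spread among these libraries, which may be technical. Where sham or cryoinjured hearts are named below, these libraries are meant. Of the 24782 genes in the file, 13910 had a mean of 1 FPKM or more over the 6 libraries and were tested.

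Freezing kills muscle on the ventricular surface. In zebrafish the dead tissue is first invaded by leukocytes and then replaced by fibrin and collagen, the epicardium switches on embryonic genes, and cardiomyocytes beside the wound lose part of their sarcomeres and divide, until the scar is largely resorbed. The protein made from yap1, Yap, binds no DNA of its own. It is kept out of the nucleus by the Hippo kinases and works through Tead factors on genes of the cytoskeleton, the matrix and growth. wwtr1 encodes its paralog Taz.

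The labels were first checked on yap1 (NCBI gene 561411). Its mRNA stood at 10.1, 14.3 and 14.4 FPKM in sham 1, 2 and 3 and at 13.7, 11.8 and 13.1 FPKM in cryoinjury 1, 2 and 3. All 6 values lay below the 18.8 to 29.8 FPKM of the wild-type (yap +/+) libraries of the same series (mean log2 difference -0.95; genotype labels were permuted within each injury state in an exact two-sided test, p = 0.005, and 400 arrangements allow no smaller value). Within the mutants, yap1 differed by 0.00 ± 0.27 (log2, SE) between cryoinjury and sham. wwtr1 (NCBI gene 568008) stood at 10.5, 15.8 and 13.6 FPKM in sham hearts and at 11.2, 16.7 and 16.2 FPKM after cryoinjury, a difference of 0.13 ± 0.29. For both genes the sign of this small difference turned under other settings, and the libraries of the groups overlapped.

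The 3 sham libraries were far apart. The first principal component of the 6 libraries held 44.1% of the variance and ran from sham 1 at 75.3 to sham 2 at -46.2, with the cryoinjured libraries between them (-23.5, 16.2 and -15.5). Sham 1 and sham 2 had the lowest correlation of the 15 pairs of libraries, 0.891, and a median absolute log2 difference per gene of 0.68, whereas sham 3 and cryoinjury 3 had the highest, 0.951. Ribosomal protein mRNAs made up 39.8%, 18.6% and 19.7% of summed FPKM in sham 1, 2 and 3 and 20.9%, 32.7% and 18.8% in cryoinjury 1, 2 and 3. Sham 1 was also the library with the lowest mean level of the collagen, macrophage and pan-leukocyte lists, and sham 2 was the richest in collagens. Cardiomyocyte mRNA was abundant in every library: myl7, the atrial and ventricular myosin light chain of zebrafish heart, stood between 14277 and 26207 FPKM. Fewer cells of a type and less RNA per cell cannot be told apart in such whole-heart libraries.

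No gene passed the adjusted threshold in limma (0 of 13910 at an adjusted p of 0.05, 0.0% called). The lowest adjusted p was 1.00. At an unadjusted p under 0.05, 187 genes (1.34%) stood higher after cryoinjury and 52 genes (0.374%) stood lower, and with quantile normalization 220 genes stood higher and 137 genes lower. The 3 cryoinjured libraries lay wholly above the 3 sham libraries in 290 genes (2.08%) and wholly below them in 279 genes (2.01%). Such genes are called separated here. For 3 against 3 libraries in random order, separation has a probability of 0.1 over both directions together and of 0.05 in each. Each of these shares lies below 0.05. The share at an unadjusted p under 0.05 in either direction, 1.72%, is also below the 0.05 of its threshold. Separation is therefore used as a description and is no evidence of a response to injury. Mean differences reached 1 or more on the log2 scale in 275 genes (1.98%) and -1 or less in 54 genes (0.388%), and 52.6% of genes stood above 0, with a median of 0.02 over all tested genes. A fit that weights each library by its estimated quality called 11 genes (9 higher and 2 lower), among them lipg, il21r.1, adam8a, nupr1 and apoa2. It gave sham 3 a weight of 15.4 against 0.244 for sham 1 and 0.361 for sham 2, and its weights did not converge. The gene lists below are described by their counts and medians, set beside these shares of all tested genes, and values of log2(FPKM + 1) understate the differences of genes near 0. In these counts, higher and lower refer to the group means of log2(FPKM + 1), whose order can differ from that of the mean FPKM. A gene with a sham mean below 1 FPKM was tested only through its cryoinjured libraries. This held for lipg, il21r.1, mmp13a, ankrd1a, fstl1a, cd9b, csf1a and fosl1a, among others. Likewise fabp10a, apoa2, vtg1 and vtg5, with cryoinjury means below 1 FPKM, were tested only through their sham libraries.

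**Figure D1:**
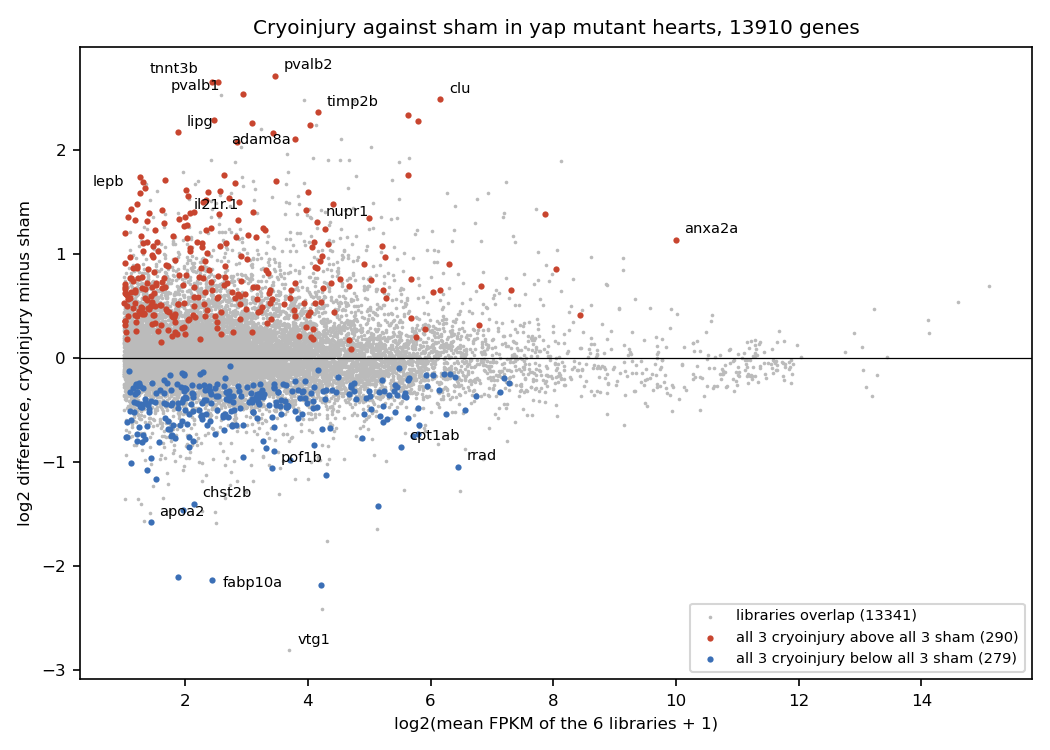
Each point is a tested gene, placed by its mean level over the 6 mutant libraries (log2 of FPKM + 1, x axis) and by its log2 difference, cryoinjury minus sham (y axis). Red points are the 290 genes in which all 3 cryoinjured libraries lay above all 3 sham libraries, blue points the 279 genes in the opposite state, and grey points genes whose libraries overlapped. Differences of 1 or more (275 genes) outnumber those of -1 or less (54 genes). The highest points include pvalb2, tnnt3b, clu and timp2b, and vtg1 is the lowest point.

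Among the genes with the lowest p and no overlap between groups, several encode lipid-handling, receptor and protease proteins. lipg, which encodes endothelial lipase, an enzyme of lipoprotein phospholipids, stood at 0.04, 0.88 and 0.195 FPKM in sham 1, 2 and 3 and at 5.94, 4.53 and 4.54 FPKM in cryoinjury 1, 2 and 3. All cryoinjured libraries were close together and above every sham library (2.17 ± 0.31, log2, SE). With a sham mean of 0.37 FPKM, lipg passed the filter only through the cryoinjured libraries. il21r.1, a receptor for the cytokine interleukin 21, was at 0.72, 1.40 and 0.76 FPKM in sham hearts and 3.66, 7.26 and 4.36 FPKM after cryoinjury (1.61 ± 0.32). lifrb, a receptor chain for leukemia inhibitory factor, was at 1.57, 1.21 and 1.71 FPKM against 9.38, 7.60 and 3.73 FPKM (1.59 ± 0.35). Lack of overlap was a condition for naming the genes in this part, so it adds no support. lpin1, a phosphatidate phosphatase of triglyceride synthesis, was at 6.27, 5.24 and 3.02 FPKM against 12.1, 12.2 and 13.1 FPKM (1.25 ± 0.30).

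adam8a, a membrane metalloprotease, stood at 0.60, 4.12 and 1.5 FPKM in sham hearts and at 18.3, 13.3 and 7.03 FPKM after cryoinjury (2.26 ± 0.49). clu encodes clusterin, a secreted chaperone, and was at 7.80, 39.4 and 21.8 FPKM against 179, 94.2 and 81.7 FPKM (2.48 ± 0.56). Sham 2 was the highest sham library for both of these genes.

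A further set of genes without overlap belongs to stress, autophagy and signalling. nupr1, a small nuclear protein induced by cell stress, stood at 13.4, 7.78 and 7.01 FPKM in sham hearts and 19.8, 28.6 and 24.0 FPKM after cryoinjury (1.31 ± 0.32). ulk2, a kinase that starts autophagy, was at 2.56, 3.79 and 3.10 FPKM against 7.93, 11.4 and 8.85 FPKM (1.32 ± 0.28). pfn4, of the profilin family, was at 2.94, 3.06 and 1.29 FPKM against 7.47, 9.49 and 9.09 FPKM (1.54 ± 0.31). These 3 genes were even across the cryoinjured hearts, with no library far from the other two. The adaptor gene sh2d3cb differed by 1.23 ± 0.30 and rgs5b, a regulator of G protein signalling known from pericytes, by 1.39 ± 0.35. Every gene tested had an adjusted limma p of 1.00.

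**Figure D2:**
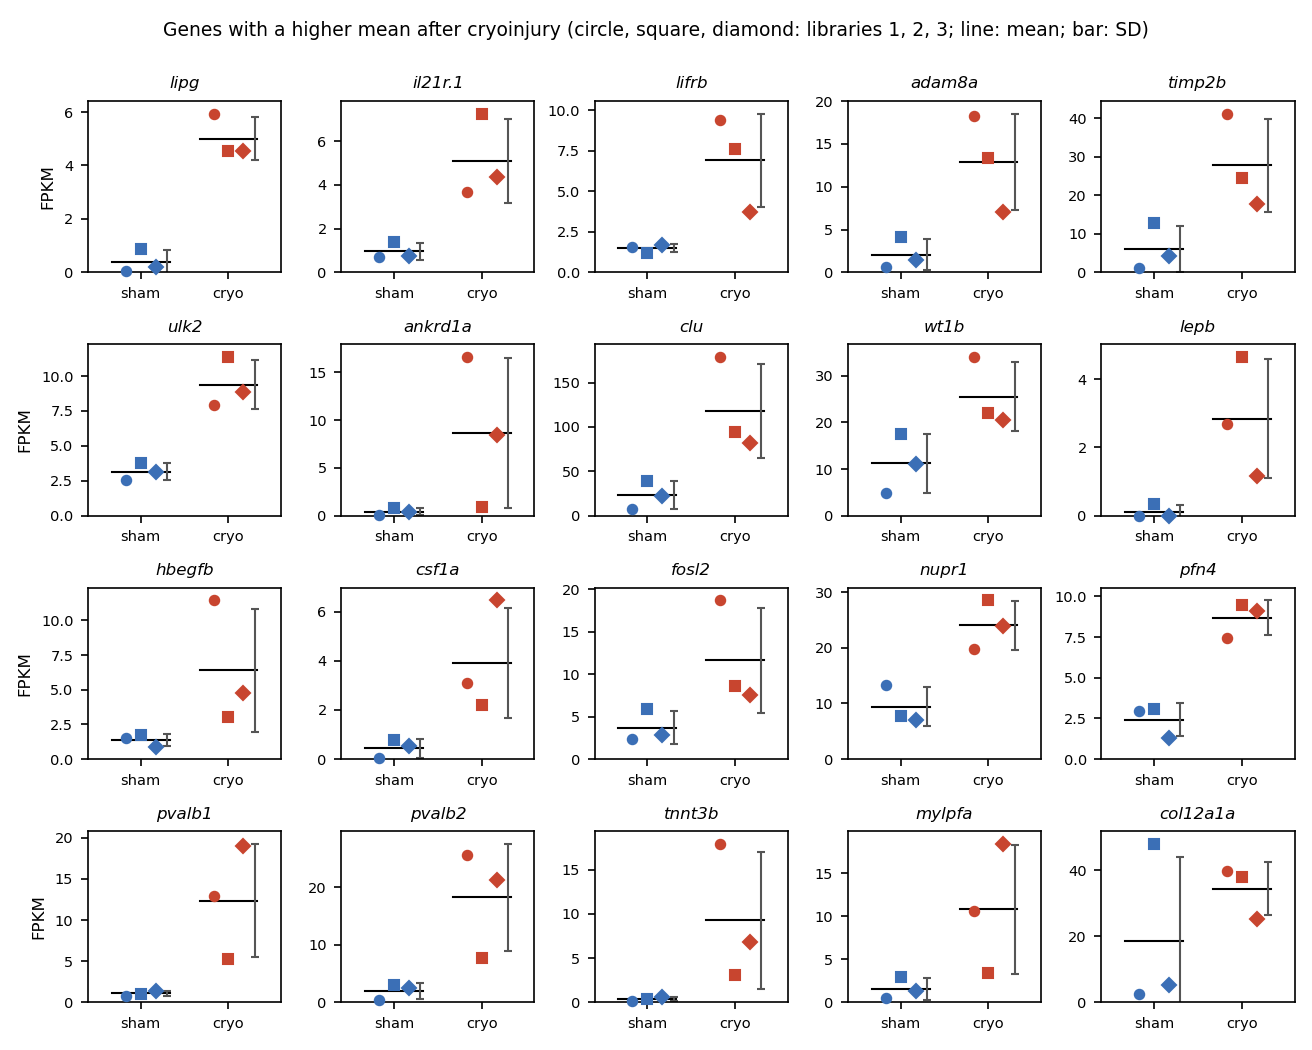
FPKM of 20 genes with a higher mean after cryoinjury, 1 panel per gene, sham libraries in blue and cryoinjured libraries in red. Circles, squares and diamonds are libraries 1, 2 and 3, the line is the mean and the bar its SD (n = 3). lipg and pfn4 show tight cryoinjured values, ankrd1a and the fast muscle genes are low in cryoinjury 2, and col12a1a overlaps because sham 2 stands at 48.0 FPKM.

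Several genes of fast skeletal muscle were near 0 in sham hearts and higher after cryoinjury, while the list as a whole had a small median. Fast fibres of the body wall use their own troponins, tropomyosin and myosin light chains, and parvalbumins, small calcium buffers that speed relaxation. Of 15 tested thin- and thick-filament genes, 13 stood higher after cryoinjury, and the median difference of the 15 was 1.14. Without overlap were 6 (2.08% of all tested genes), and 8 stood higher at an unadjusted p under 0.05 (1.34% of all tested genes). Here the filter matters: a gene near 0 in sham hearts was tested only if it was high after cryoinjury. Of all 33 members matched in the file 27 stood higher, and the median was 0.18. Those below the filter, 18 genes, had a median of 0.10.

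pvalb1 stood at 0.81, 1.02 and 1.43 FPKM in sham hearts and at 12.9, 5.23 and 18.98 FPKM after cryoinjury (2.53 ± 0.43). pvalb2 was at 0.35, 2.97 and 2.5 FPKM against 25.7, 7.80 and 21.3 FPKM (2.71 ± 0.54). The fast troponin T gene tnnt3b was at 0.13, 0.34 and 0.605 FPKM against 17.9, 3.09 and 6.78 FPKM (2.65 ± 0.51). In each of these separated genes cryoinjury 2 was the lowest cryoinjured library. tpma, the fast alpha-tropomyosin, was at 0, 0.16 and 0.17 FPKM against 14.1, 0.81 and 11.3 FPKM (2.65 ± 0.72), mylpfa, a fast regulatory myosin light chain, differed by 2.07 ± 0.57 and tnni2a.3, a fast troponin I, by 1.63 ± 0.43. Apart from mylpfa, the defining markers of fast muscle overlapped, although most had higher means after cryoinjury. ckma, the muscle creatine kinase, was at 149, 634 and 444 FPKM against 482, 622 and 1041 FPKM (0.96 ± 0.56). The muscle factor gene myod1 differed by 0.57 ± 0.45. myhz2 and actn3a were low, above all sham libraries in cryoinjury 1 and 3 and at 0 in cryoinjury 2. The further troponin T gene tnnt3a was at 0 in all libraries except cryoinjury 2, at 0.25 FPKM. The skeletal actin acta1b, which is not among these defining markers, had means of 832 FPKM in both groups. The parvalbumin gene pvalb4, named after its values were seen, was at 1.32, 0.83 and 12.4 FPKM against 12.4, 1.74 and 9.24 FPKM and overlapped. Of 11 calcium-binding and excitation genes 7 stood higher (median 0.09), of 20 muscle metabolism and factor genes 10 (median -0.00), and of 6 slow-muscle genes 4 (median 0.03). Whether skeletal muscle at the dissected heart contributes to these values was not tested.

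Genes of the scar matrix were higher on average, and the spread of the sham libraries was larger than the difference. Collagens stood higher in 15 of 16 tested genes (median 0.70, 0 without overlap) and glycoproteins and proteoglycans in 16 of 21 (median 0.62, 0 without overlap). Matrix-processing genes stood higher in 21 of 24 cases (median 0.74), 4 without overlap (2.08% of all tested genes). Of the matched collagens, 8 lay below the filter, and over all 24 the count was 17 higher and 7 lower, with a median of 0.46. Over all 26 matched glycoproteins and proteoglycans it was 19 higher and 7 lower, with a median of 0.37. Without sham 1, the collagen median turned to -0.21 and that of the glycoproteins to -0.14, while matrix processing kept 0.12. Without sham 2, these medians were 1.34, 1.21 and 1.25. The median of all tested genes was -0.12 without sham 1 and 0.15 without sham 2. The summed level of the fibroblast markers pdgfra, col1a2 and postnb was 23.9, 406 and 171 FPKM in sham 1, 2 and 3 and 258, 202 and 292 FPKM in cryoinjury 1, 2 and 3. In this sum the sham libraries thus lay on either side of all cryoinjured libraries. Outside sham 1 most of the sum came from col1a2 and postnb, which also stand in the scar matrix lists. pdgfra alone was at 11.7, 5.47 and 7.51 FPKM in sham hearts and 5.12, 6.81 and 4.42 FPKM after cryoinjury. It was thus highest in sham 1, where the sum was lowest.

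Within this list the separated genes were modifiers of the matrix rather than its fibres. timp2b, an inhibitor of matrix metalloproteases, stood at 1.12, 12.8 and 4.13 FPKM in sham hearts and at 41.2, 24.4 and 17.8 FPKM after cryoinjury (2.36 ± 0.63). loxl2a, a lysyl oxidase-like enzyme that cross-links collagen, was at 0.25, 7.45 and 3.19 FPKM against 21.2, 8.22 and 18.3 FPKM (2.16 ± 0.66). mmp13a, a collagenase also made by leukocytes, was at 0.55, 1.06 and 0.44 FPKM against 1.1, 6.44 and 1.95 FPKM (1.11 ± 0.46). With adam8a these were the 4 matrix-processing genes without overlap, although for loxl2a and mmp13a the gap to sham 2 was small. timp2b and mmp13a also stand in the neutrophil list. Structural genes overlapped. fn1a, a fibronectin laid down in the regenerating ventricle, was at 0.39, 36.3 and 6.35 FPKM against 35.4, 28.5 and 26.7 FPKM (2.1 ± 0.98), and the collagen gene col12a1a was at 2.53, 48.0 and 5.35 FPKM against 39.9, 38.01 and 25.2 FPKM (1.75 ± 0.84). In both, sham 2 stood at the highest level of all 6 libraries. The fibrillar collagen gene col5a2a (1.19 ± 0.76), the periostin gene postna (1.04 ± 0.46) and the thrombospondin genes thbs1 (1.14 ± 0.45) and thbs1a (1.40 ± 0.59) also overlapped.

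Epicardial genes were mixed. Of 23 tested epicardial markers 15 stood higher (median 0.44), 4 without overlap (2.08% of all tested genes). The median stayed between 0.18 and 0.50 without any single library. wt1b, a transcription factor of activated epicardium, stood at 4.89, 17.6 and 11.12 FPKM in sham hearts and at 34.03, 22.1 and 20.5 FPKM after cryoinjury (1.24 ± 0.44). anxa2a, a calcium-dependent membrane-binding annexin, was abundant at 330.3, 962 and 733 FPKM against 1574, 1357 and 1161 FPKM (1.14 ± 0.45). krt18, a keratin of simple epithelia, was at 171, 227 and 143 FPKM against 548, 250.3 and 239 FPKM (0.85 ± 0.40). These and clu were the 4 separated genes, and cryoinjury 1 was the highest library for each of them. The defining markers tcf21 and tbx18 did not follow. tcf21 stood at 49.9, 84.3 and 40.4 FPKM in sham hearts and 40.9, 65.4 and 32.1 FPKM after cryoinjury, and tbx18 at 8.54, 26.5 and 16.9 FPKM against 19.6, 15.2 and 6.50 FPKM. Smooth muscle and bulbus genes were higher in 17 of 19 tested cases (median 0.28, 0 without overlap), among them tagln, the actin-binding transgelin, at 146, 332 and 221 FPKM against 378, 230.0 and 597 FPKM.

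Known target genes of Yap and Taz had a small median as a list. Of 23 tested, 16 stood higher and 7 lower (median 0.13), and without sham 1 the median was -0.01. The targets without overlap included ankrd1a and nuak2, an AMPK-related kinase gene named here after its values were seen (0.53 ± 0.28). Of all tested genes, 2.08% were separated higher. ankrd1a, a cardiac ankyrin-repeat protein induced by stretch, was at 0.08, 0.80 and 0.42 FPKM in sham hearts and at 16.6, 0.92 and 8.49 FPKM after cryoinjury (2.29 ± 0.71), so its separation rested on a gap of 0.12 FPKM in cryoinjury 2. fstl1a, a secreted follistatin-like protein, was at 0.11, 1.34 and 0.84 FPKM against 4.44, 0.99 and 13.1 FPKM (1.67 ± 0.65) and overlapped. gadd45ba, a growth-arrest and stress gene, had the lowest difference of the list, with 56.5, 105 and 215 FPKM against 26.7, 36.6 and 88.2 FPKM (-1.28 ± 0.57). Components of the Hippo pathway stood higher in 13 of 19 tested genes (median 0.13), with 0 at an unadjusted p under 0.05.

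Most leukocyte lists had higher means of log2(FPKM + 1) after cryoinjury, with the same dependence on single sham libraries. All 27 tested macrophage markers stood higher after cryoinjury (median 0.78). Only 1 of them was free of overlap (2.08% of all tested genes). Their median was 0.23 without sham 1 and 1.33 without sham 2. The summed level of the macrophage markers mpeg1.1, csf1ra, marco and c1qa was 29.4, 294 and 51.0 FPKM in sham 1, 2 and 3 and 253, 237 and 88.4 FPKM in cryoinjury 1, 2 and 3. Sham 2 was the highest and sham 1 the lowest, and cryoinjury 3 lay closer to sham 3 than to the other cryoinjured hearts. cd9b, a tetraspanin, was the separated marker, at 0.87, 1.05 and 0.13 FPKM against 2.24, 2.18 and 2.53 FPKM (1.02 ± 0.31). havcr1, a phosphatidylserine receptor, was at 5.30, 20.6 and 8.69 FPKM against 27.9, 36.9 and 16.1 FPKM (1.28 ± 0.49). csf1a, a ligand of the macrophage growth factor receptor, was separated, at 0.03, 0.79 and 0.525 FPKM against 3.09, 2.2 and 6.45 FPKM (1.71 ± 0.39), and was highest in cryoinjury 3, where macrophage markers were lowest among the cryoinjured hearts.

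Pan-leukocyte genes stood higher in 24 of 27 tested cases (median 0.59, 0 without overlap), and their median was 0.06 without sham 1. ptprc, which encodes the leukocyte phosphatase CD45, was at 1.53, 17.5 and 5.74 FPKM in sham hearts and 14.7, 20.7 and 8.96 FPKM after cryoinjury. Neutrophil genes stood higher in 12 of 15 cases (median 0.46), and the median was 0.08 without cryoinjury 2. The separated members of this list (2.08% of all tested genes) were timp2b and mmp13a, which are also counted among the matrix-processing genes. lyz, the lysozyme gene, was at 0.87, 1.65 and 9.76 FPKM against 1.72, 114 and 27.7 FPKM, with cryoinjury 2 far above all other libraries. The summed neutrophil markers mpx, lyz and npsn were 1.11, 10.6 and 15.1 FPKM against 7.36, 167 and 33.1 FPKM. Lymphocyte genes were low, with 9 of 26 matched members tested, 4 of them higher (median -0.07). Thrombocyte genes stood higher in 8 of 13 cases (median 0.24), 1 without overlap (2.08% of all tested genes). This was itga2b, the integrin CD41 of thrombocytes, at 2.22, 3.36 and 1.70 FPKM against 5.55, 4.75 and 5.06 FPKM (0.86 ± 0.28).

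Inflammatory mediators were less uniform. Cytokines and chemokines stood higher in 9 of 17 tested genes (median 0.05, 0 without overlap) and signalling genes in 19 of 25 (median 0.11). Cytokine receptors of the list stood higher in 15 of 19 (median 0.24), and of these il21r.1 alone was without overlap (2.08% of all tested genes). The separated receptor gene lifrb, described above, is not a member of this list. The chemokine gene ccl34a.4 had the largest difference of its list, with 1.32, 35.6 and 2.92 FPKM in sham hearts against 57.2, 24.6 and 10.6 FPKM (1.90 ± 0.99), and overlapped through sham 2. ptgs2a, which encodes a prostaglandin-forming cyclooxygenase, was separated by a narrow gap, at 1.23, 1.65 and 0.58 FPKM against 6.02, 2.04 and 1.79 FPKM (0.89 ± 0.41). Complement genes were mostly too low to test: 8 of 25 passed the filter, 6 of these stood higher, and over all 25 the count was 14 higher and 11 lower (median 0.01). c4b was separated at 4.48, 14.2 and 12.2 FPKM against 30.7, 43.5 and 15.9 FPKM (1.48 ± 0.49), as was c4 (0.90 ± 0.43), where 2.08% of all tested genes were separated higher. c3a.1, which encodes the central component C3, overlapped (1.52 ± 0.52). Interferon-response genes stood higher in 15 of 16 cases (median 0.36, 0.02 without sham 1) and antigen presentation genes in 18 of 24 (median 0.21, -0.18 without sham 1), with 0 of either list separated. Lysosomal hydrolase and proton pump genes stood higher in 30 of 41 cases (median 0.27), 3 without overlap (2.08% of all tested genes). Among these was ctsk, the collagen-degrading cathepsin K, at 35.7, 61.9 and 55.9 FPKM against 73.5, 96.8 and 65.7 FPKM (0.63 ± 0.32).

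**Figure D3:**
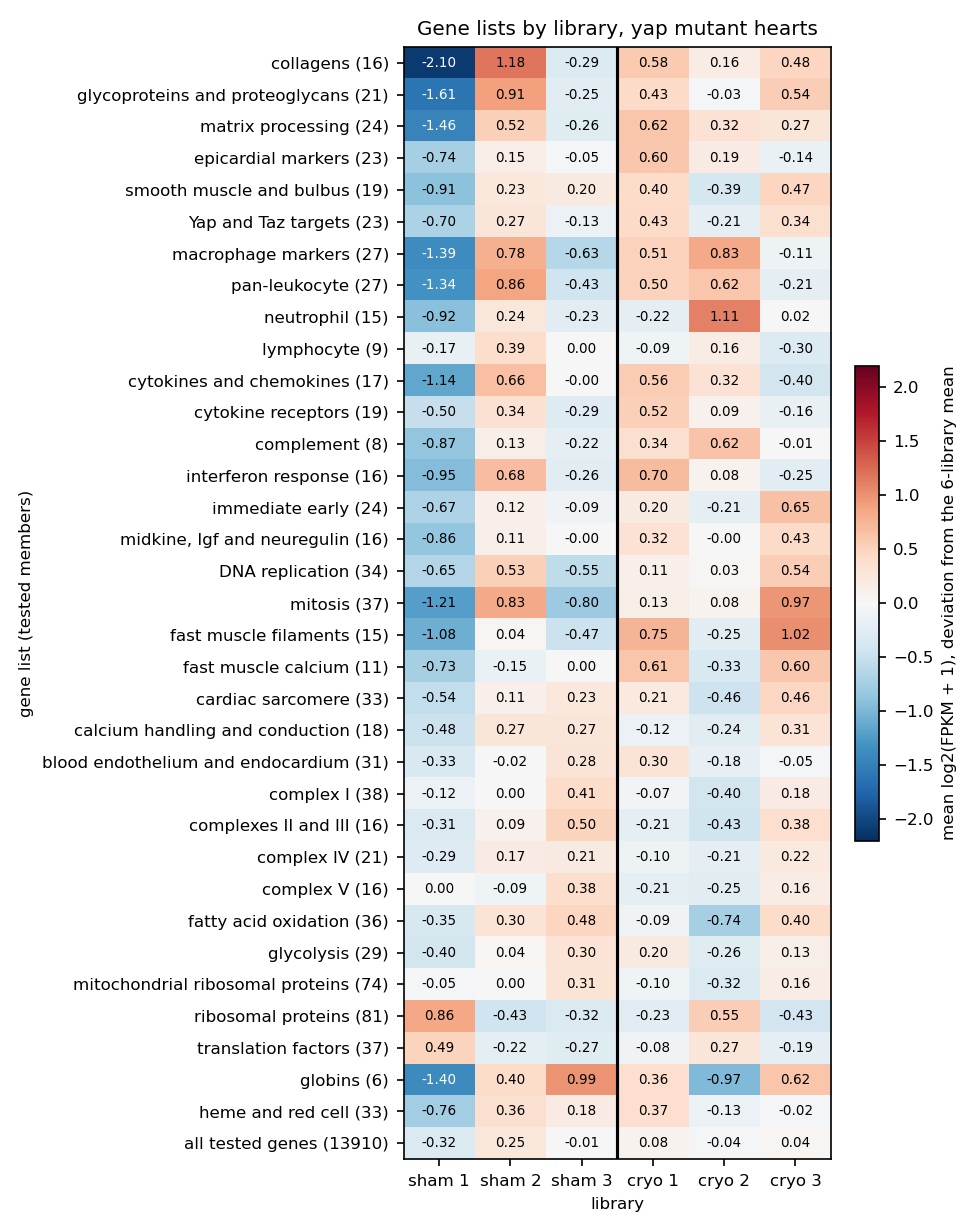
Mean log2(FPKM + 1) of the tested members of each gene list in each mutant library, as the deviation from that gene's mean over the 6 libraries (red higher, blue lower). The number of tested members stands after each name, and the last line holds all tested genes. Sham 1 is the lowest library for the collagens (-2.1), macrophage markers (-1.39) and mitosis genes (-1.21) and the highest for ribosomal proteins (0.86), and sham 2 is the highest library for the collagens (1.18).

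Secreted growth factors gave a few separated genes among families with small medians. Of 16 tested genes of the midkine, Igf and neuregulin group, 13 stood higher (median 0.38), 2 without overlap (2.08% of all tested genes). Over all 29 matched members, 18 stood higher and 11 lower, with a median of 0.12. The 13 members below the filter had a median of -0.01. lepb encodes leptin b, whose gene in wild-type zebrafish is known for an injury-responsive enhancer active in endocardium. It was listed at 0, 0.35 and 0 FPKM in sham hearts and at 2.69, 4.65 and 1.17 FPKM after cryoinjury (1.69 ± 0.38). lepb thus passed the filter only through the cryoinjured libraries. hbegfb, a heparin-binding ligand of the Egf receptor, was at 1.49, 1.76 and 0.88 FPKM against 11.4, 3.02 and 4.79 FPKM (1.5 ± 0.43). In both, every cryoinjured library lay above every sham library. mdka, the midkine gene, had the largest difference of the group, 1.89 ± 0.84, but overlapped, since sham 2 at 383 FPKM lay above cryoinjury 1 and 2 (370 and 328 FPKM) and below cryoinjury 3 (445 FPKM). Tgf-beta, activin and Bmp genes stood higher in 16 of 24 cases (median 0.10), with bmp6 at 2.22, 0.94 and 0.79 FPKM against 1.82, 3.73 and 3.70 FPKM, and Fgf, Pdgf and Vegf genes in 15 of 22 (median 0.12). Notch genes stood lower in 13 of 17 cases (median -0.15), among them hes6, a Hes family factor, at 7.26, 7.19 and 7.78 FPKM against 2.29, 4.93 and 7.01 FPKM.

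Immediate early genes, encoding transcription factors that answer growth signals and stress within minutes, stood higher in 19 of 24 cases (median 0.44). Of these, 3 were without overlap (2.08% of all tested genes) and 5 at an unadjusted p under 0.05 (1.34% of all tested genes). The AP-1 subunit gene fosl2 was at 2.33, 5.91 and 2.85 FPKM in sham hearts and 18.7, 8.57 and 7.59 FPKM after cryoinjury (1.40 ± 0.42). fosl1a was at 0.34, 0.72 and 0.59 FPKM against 4.59, 1.06 and 2.22 FPKM (1.11 ± 0.39), and junbb at 8.09, 16.9 and 10.0 FPKM against 32.0, 17.1 and 19.8 FPKM (0.93 ± 0.36). All 3 were highest in cryoinjury 1, and junba, highest there too, overlapped through sham 2 (1.24 ± 0.49). Without cryoinjury 3 the list's median was 0.03. Heat shock and ER stress genes stood higher in 24 of 36 cases with a median of 0.06 (0.00 with median-of-ratios rescaling). Among them nupr1 was the separated member (2.08% of all tested genes). Clock genes stood higher in 18 of 27 cases and lower in 9 (median 0.09). Of these, 1 was separated higher and 2 lower (2.08% and 2.01% of all tested genes). The transcriptional repressor gene bhlhe41 was the one separated higher, at 3.55, 4.90 and 5.24 FPKM against 15.3, 5.69 and 18.7 FPKM (1.23 ± 0.42). The nuclear receptor genes rorca (-0.40 ± 0.27) and rorab (-0.26 ± 0.26), named after their values were seen, were separated lower, and the repressor genes ciarta (1.43 ± 0.50) and nr1d1 (1.04 ± 0.45) overlapped. The labels do not give the hour of collection, so a difference in the time of day was not tested.

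Genes of mitosis and DNA replication stood higher as lists while no single gene of either was separated. All 37 tested mitosis genes (51 of 51 matched) had a higher mean of log2(FPKM + 1) after cryoinjury, with a median difference of 0.81. DNA replication genes stood higher in 29 of 34 cases (median 0.40). The count of separated genes was 0 in both lists. mki67, the proliferation marker Ki-67, stood at 0.25, 4.12 and 0.605 FPKM in sham hearts and 2.81, 2.52 and 4.52 FPKM after cryoinjury (0.95 ± 0.52), and aurkb, a mitotic kinase, at 0, 3.84 and 0.625 FPKM against 2.30, 3.05 and 5.06 FPKM (1.12 ± 0.55). tyms, the thymidylate synthase gene, was at 0.27, 10.8 and 1.92 FPKM against 10.3, 6.95 and 15.5 FPKM (1.69 ± 0.72), and rrm2, a ribonucleotide reductase subunit, differed by 1.56 ± 0.72. In these genes sham 1 and sham 3 were low and sham 2 lay within the range of the cryoinjured hearts. The mitosis median was 0.37 without sham 1 and 1.39 without sham 2. Arrest and p53 genes stood higher in 13 of 21 cases (median 0.24), 2 without overlap (2.08% of all tested genes). Of these, ccng2 encodes cyclin G2, which restrains the cell cycle, and was at 9.61, 15.1 and 10.3 FPKM against 29.0, 17.99 and 32.3 FPKM (1.1 ± 0.32). The other, rb1, was at 1.57, 2.48 and 2.045 FPKM against 3.55, 2.61 and 2.86 FPKM (0.41 ± 0.27).

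Heart muscle gene groups had medians near that of all tested genes, apart from the cardiac factors. Sarcomere genes stood higher in 20 of 33 cases (median 0.03, and -0.02 with median-of-ratios rescaling) and calcium handling and conduction genes in 7 of 18 (median -0.04), with 0 separated in either. tcap, the titin cap, was at 24.3, 96.3 and 71.0 FPKM in sham hearts and at 279, 57.0 and 366 FPKM after cryoinjury (1.69 ± 0.74), low in cryoinjury 2 as the fast muscle genes were. Cardiac factors and natriuretic peptides stood lower in 11 of 18 cases (median -0.19). tbx5a, a transcription factor of the heart field, was the separated one, where 2.01% of all tested genes were separated lower. It was at 16.3, 14.6 and 19.2 FPKM against 10.3, 12.8 and 10.2 FPKM (-0.54 ± 0.26). nppb, a natriuretic peptide gene that responds to wall stress, ranged from 134 to 758 FPKM in sham hearts and from 451 to 1138 FPKM after cryoinjury (0.84 ± 0.65), and nppal was at 1.25, 2.17 and 0 FPKM against 6.92, 9.67 and 1.86 FPKM (1.69 ± 0.58). rrad encodes a small GTPase that inhibits L-type calcium channels. It was at 108, 101 and 131 FPKM against 99.8, 42.2 and 37.2 FPKM (-1.04 ± 0.40), with cryoinjury 1 just below the sham hearts. Blood endothelium and endocardium genes (16 of 31 higher, median 0.02) and lymphatic genes (9 of 12, median 0.10) were near the median of all tested genes.

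Genes of oxidative metabolism lay slightly lower on average, and the libraries of the groups overlapped in the mean level of every complex. Complex I genes stood lower in 34 of 38 cases (median -0.20), complex II and III genes in 14 of 16 (median -0.24), complex IV genes in 12 of 21 (median -0.09), and complex V genes in 16 of 16 (median -0.20), where 47.4% of all tested genes stood lower. A single gene of these lists, the complex I subunit gene ndufb3, was separated, where 2.01% of all tested genes were separated lower. It stood at 145 to 176 FPKM in sham hearts and 134 to 136 FPKM after cryoinjury, and was named after its values were seen. ndufb11, a complex I subunit, was at 168, 154 and 178 FPKM in sham hearts and 92.2, 128 and 155 FPKM after cryoinjury, and atp5j, a subunit of ATP synthase, at 888, 739 and 901 FPKM against 419, 769 and 696 FPKM. cox7a1, the muscle form of a cytochrome oxidase subunit, was at 935, 448 and 727 FPKM against 354, 455 and 500.02 FPKM. Sham 3 was the library with the highest mean in all 4 groups except complex IV, where cryoinjury 3 stood beside it. For complexes II and III the mean log2 deviations were -0.31, 0.09 and 0.50 in sham 1, 2 and 3. They were -0.21, -0.43 and 0.38 in cryoinjury 1, 2 and 3. For complex IV they were -0.29, 0.17 and 0.21 against -0.10, -0.21 and 0.22. The small medians of these complexes thus lay within the spread of single libraries. Mitochondrial ribosomal protein genes stood lower in 60 of 74 cases (median -0.16), 5 without overlap (2.01% of all tested genes). mrps36 was at 119, 99.0 and 112 FPKM against 66.3, 87.3 and 79.4 FPKM (-0.50 ± 0.27), and mrpl44 differed by -0.46 ± 0.28.

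Fatty acid oxidation genes stood lower in 29 of 36 cases (median -0.31), and without cryoinjury 2 the median was 0.03. Cpt1 enzymes load fatty acids onto carnitine for import into mitochondria. cpt1ab was the separated member (2.01% of all tested genes were separated lower), at 45.4, 70.0 and 59.3 FPKM in sham hearts and 25.5, 30.7 and 39.2 FPKM after cryoinjury (-0.85 ± 0.30). The muscle form cpt1b was at 26.3, 41.4 and 23.9 FPKM against 14.5, 8.68 and 24.4 FPKM (-0.97 ± 0.40). acsl1b, an acyl-CoA synthetase, was at 10.2, 25.8 and 26.3 FPKM against 14.8, 3.68 and 12.8 FPKM (-1.0 ± 0.54). cpt1b and acsl1b were lowest in cryoinjury 2, and both overlapped. Glycolysis genes were evenly divided, with 16 of 29 higher (median 0.00). Lipases and lipid carriers stood higher in 13 of 19 cases (median 0.19), with lipg as the separated member (2.08% of all tested genes were separated higher).

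**Figure D4:**
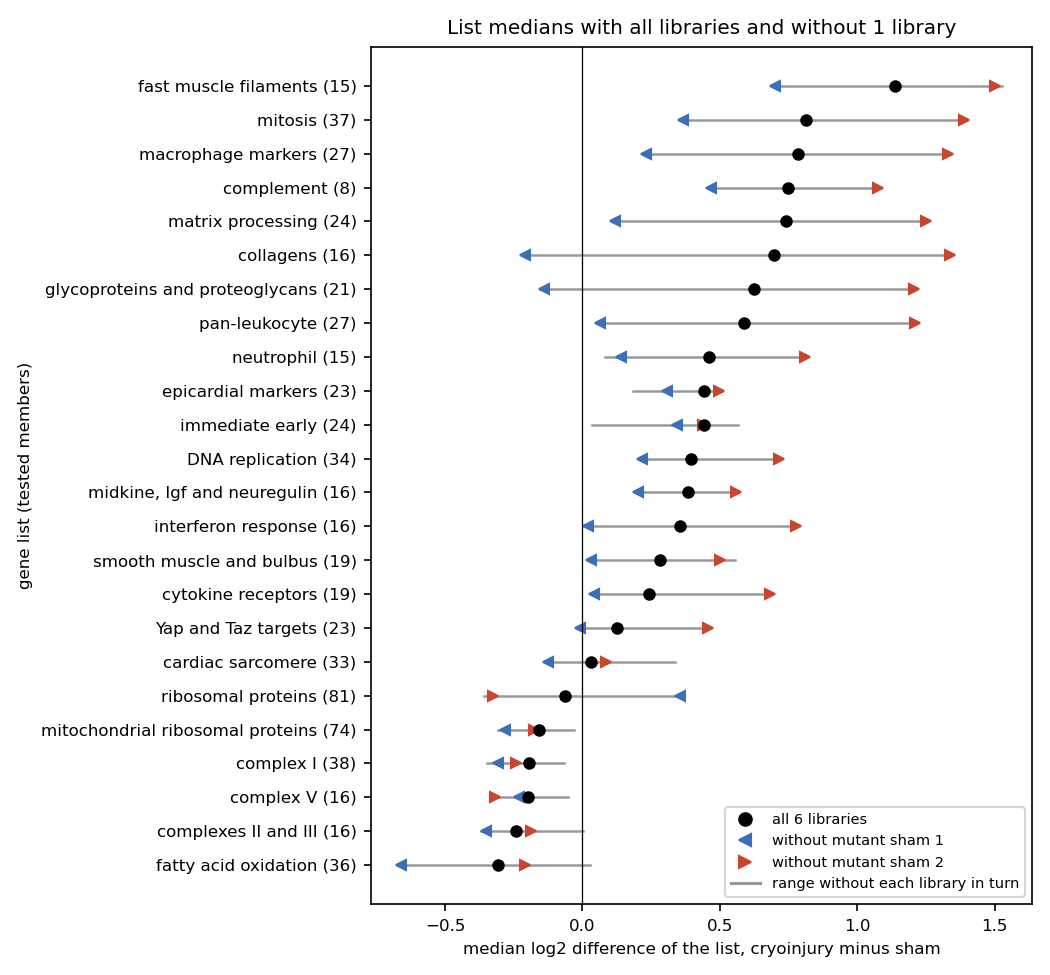
Median log2 difference (cryoinjury minus sham) of each gene list, with all 6 libraries (black circle), without sham 1 (blue triangle) and without sham 2 (red triangle). Grey lines span the medians found when each library was left out in turn, and the number of tested members stands after each name. The collagen median spans -0.21 to 1.34, and complex I stays at -0.07 or below. The fast muscle filament median covers the 15 tested members, some of which passed the filter only through the cryoinjured libraries, and over all 33 matched members it is 0.18.

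Ribosomal and red cell genes followed single libraries. Cytoplasmic ribosomal protein genes stood lower in 60 of 81 cases with a median of -0.06, which was 0.35 without sham 1 and -0.36 without cryoinjury 2, the libraries richest in these mRNAs. Their share of summed FPKM did not separate the groups (exact permutation, two-sided p = 0.9, where 3 against 3 allows no p below 0.1). Translation factors stood higher in 16 of 37 cases (median -0.03). Globin mRNAs made up 2.34%, 7.45% and 6.11% of summed FPKM in sham hearts and 8.04%, 5.74% and 5.90% after cryoinjury (exact permutation p = 0.6). Heme and red cell genes stood higher in 21 of 33 cases (median 0.15, -0.18 without sham 1).

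Single genes that stood lower after cryoinjury without overlap are given here, and those of liver and plasma further below. The differences of the genes in this part ran from -0.57 to -1.40. pof1b, an actin-binding protein, was at 14.1, 13.9 and 12.4 FPKM in sham hearts and at 5.83, 5.47 and 6.59 FPKM after cryoinjury (-1.06 ± 0.25). chst2b, which sulfates cell-surface sugars, was at 2.63, 9.77 and 4.38 FPKM against 1.40, 1.05 and 1.33 FPKM (-1.40 ± 0.40). Both groups of pof1b were tight, while for chst2b only the cryoinjured hearts were. hsd17b8, a mitochondrial hydroxysteroid dehydrogenase of fatty acid synthesis, was at 9.77, 12.2 and 18.3 FPKM against 6.40, 6.99 and 6.24 FPKM (-0.89 ± 0.30), and plbd2, a lysosomal protein related to phospholipase B, at 8.59, 13.04 and 6.02 FPKM against 4.09, 3.31 and 4.99 FPKM (-0.95 ± 0.33). bckdhbl, named for a subunit of branched-chain keto acid dehydrogenase, was at 25.1, 13.3 and 11.7 FPKM against 9.61, 7.12 and 6.16 FPKM (-0.98 ± 0.35). pygma, the muscle glycogen phosphorylase, was at 10.3, 8.82 and 16.8 FPKM against 4.23, 7.55 and 6.32 FPKM (-0.87 ± 0.33), the opposite direction to the fast-fibre filament genes. crls1, the cardiolipin synthase of the inner mitochondrial membrane, differed by -0.66 ± 0.29. avpr1aa, a vasopressin-type receptor (-0.80 ± 0.30), epas1b, a hypoxia-inducible factor (-0.73 ± 0.31), errfi1, an inhibitor of the Egf receptor (-0.76 ± 0.33), rmdn1 (-1.12 ± 0.42) and tmem106bb, a lysosomal membrane protein (-0.57 ± 0.25), complete this group.

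Several transcripts known from the liver and from female plasma were also lower. fabp10a, the liver fatty acid binding protein, stood at 3.42, 5.08 and 15.1 FPKM in sham hearts and at 2.37, 0.22 and 0.24 FPKM after cryoinjury (-2.14 ± 0.57). apoa2, a plasma lipoprotein gene, was at 2.34, 2.62 and 4.24 FPKM against 0.38, 0.72 and 0 FPKM (-1.58 ± 0.32). vtg2, of the vitellogenins, the yolk precursors that the liver of egg-laying females secretes, was at 3.77, 7.48 and 2.96 FPKM against 0.44, 1.55 and 1.11 FPKM (-1.46 ± 0.37). These 3 genes were separated, where 2.01% of all tested genes were separated lower, and vtg1 was not. vtg1 was at 34.4 and 34.6 FPKM in sham 2 and 3, listed at 0 in sham 1 and cryoinjury 1, and at 0.10 and 2.34 FPKM in cryoinjury 2 and 3. The vitellogenin gene vtg5 was likewise highest in sham 2 and 3 (4.55 and 3.70 FPKM), listed at 0 in sham 1 and cryoinjury 1, and overlapped. The vitellogenins were counted in a gonad list, where 3 of 4 tested genes stood lower and 1 higher (median -1.43). Over the 13 matched genes of that list 9 stood lower and 4 higher, with a median of -0.07. The liver and plasma list holds fabp10a and apoa2 but none of these vitellogenins. Of its 8 tested genes 5 stood lower and 3 higher. Over its 30 matched genes 21 stood lower, 8 higher and 1 was at 0 throughout (median -0.10), most of them below the filter. tfa, the transferrin gene, was among those that stood higher, at 13.4, 74.9 and 26.4 FPKM against 23.9, 142 and 105 FPKM. kng1 was another (1.13 ± 0.56). The summed liver markers fabp10a, tfa, fgb and apoa2 were 19.3, 83.2 and 46.4 FPKM against 26.7, 144 and 106 FPKM. In the cryoinjured hearts most of this sum came from tfa. The part of adhering liver tissue or of the sex of the fish in these values was not tested. Markers of exocrine pancreas, skin and neural tissue gave list medians of -0.00, 0.23 and 0.25 over 4, 12 and 3 tested genes.

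**Figure D5:**
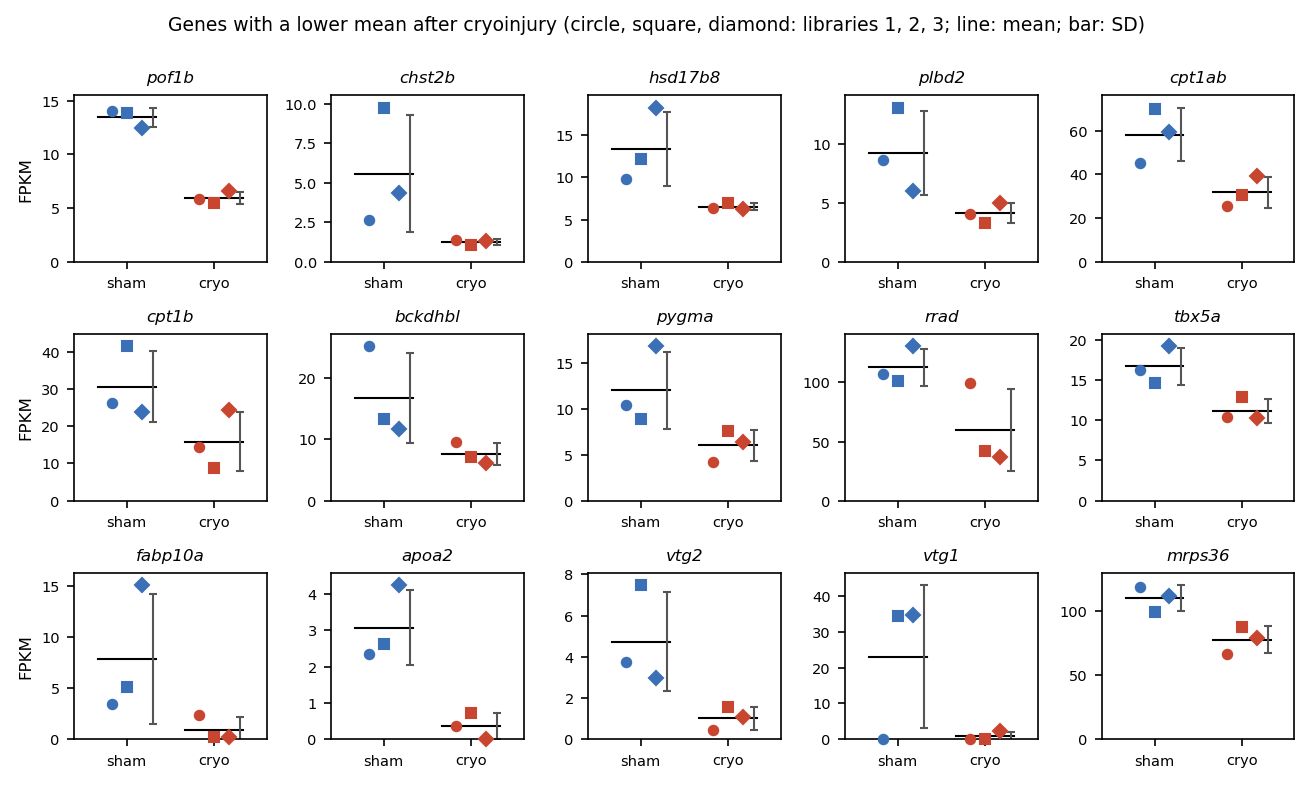
FPKM of 15 genes with a lower mean after cryoinjury, 1 panel per gene, sham libraries in blue and cryoinjured libraries in red. Circles, squares and diamonds are libraries 1, 2 and 3, the line is the mean and the bar its SD (n = 3). pof1b and hsd17b8 show tight cryoinjured values below all sham values, rrad is separated by less than 2 FPKM, and vtg1 and cpt1b overlap.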

How the data were processed

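Trizol extraction and low-input poly-A library preparation for BGISEQ-500 sequencing are given by the labels' protocols. The submitters' processing notes name HISAT, Bowtie2 and the build GRCz11. The authors deposited the expression values as FPKM, which scale a gene's fragments to transcript length and library total. Which program computed them is not given in the sources used here. FPKM depend on what else is in a library: where ribosomal protein mRNA takes a larger share, the values of other genes are lower.

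Among the columns of values 13 carried a sample's name, and 1 that carried none was left out. Sham 3 had 2 columns (median absolute log2 difference 0.0165), which were averaged into 1 sample. Summed FPKM ran from 690856 to 820875 in the 6 libraries, and 3353 to 5138 genes were listed at 0. Total reads are unknown, so no counting interval was computed. The steps between low FPKM values gave depths of 0.793 (sham 2), 0.678, 0.908 and 0.841 (cryoinjury 1, 2 and 3) relative to sham 1, and none for sham 3.

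Genes with a mean of 1 FPKM or more over the 6 libraries were tested on log2(FPKM + 1) with limma 3.58.1 (trend) in R 4.3.3, two-sided, with Benjamini-Hochberg adjustment at 0.05 over all tested genes. Each group has 3 libraries. Single values were compared by exact permutation in Python 3.11.15 with scipy 1.17.1. The test was checked on simulated data with noise drawn independently for each gene. There, 4.91% of unchanged genes had an unadjusted p under 0.05. The simulation held no deviation shared by many genes of a library, such as that of sham 1, so it cannot speak for that case. Lists were described without a test: 22 lists in 56 groups by role, of whose 1641 entries 1595 matched a gene, by the file's symbols or through RefSeq names of the assembly GRCz12tu. Coordinates and sequences were not used here. The members and lists were chosen with earlier results of these data known. Genes were named by a rule: yap1, wwtr1 and any called gene, then the 15 separated genes per direction with the lowest p among those with a symbol and a mean of 5 FPKM or more in the higher group, then up to 4 members of each role with the lowest p. pvalb1, pvalb2, lipg and il21r.1 were also followed because earlier results named them. A gene that the rule selected is not reported here. Defining cell type markers were named beside their lists. Reads of near-identical paralogs (parvalbumins, troponins, globins, complement and keratin genes) may be divided between copies. Other scalings, filters, pseudocounts, weights, a replicate block, a covariate and fits without single libraries were also run.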

Additional observations from a re-analysis of the deposited data

How the results depend on the processing

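Over 21 alternatives, genes were called with array weights alone (11 genes, 9 higher and 2 lower, adjusted p from 0.0149 to 0.0433), where sham 3 carried most of the weight; the lowest adjusted p was otherwise 0.0603, without cryoinjury 2, and 0.0940 with all 12 libraries in the fit. Against 187 genes higher and 52 lower at an unadjusted p under 0.05, the counts were 407 and 162 with no filter (23888 genes tested), 82 and 20 with a filter at 5 FPKM (7472 tested), 286 and 161 with all 12 libraries, 1758 and 1518 with array weights, and 383 and 206 without sham 1 and sham 2 together, a setting chosen after seeing the data. The lower count was 105 with median-of-ratios rescaling, 137 with quantile normalization, 159 with the ribosomal protein share as covariate, and 152 without sham 1 and cryoinjury 2. Leaving out 1 library gave 127 to 829 higher (829 without sham 2, 127 without sham 3) and 25 to 282 lower (282 without sham 1, 25 without sham 3). The cause of these shifts was not tested.

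Of 109 named genes, 102 kept their direction under the alternatives run for them. Many of them were named for a low p or for separation in these same libraries. A separated gene cannot change direction when 1 library is left out, so this count adds no support. The yap1 difference turned to -0.050 with median-of-ratios rescaling, -0.018 with quantile normalization, -0.014 without ribosomal protein and globin genes, -0.16 with array weights, -0.034 with the covariate, -0.096 without sham 1 and cryoinjury 2, and -0.15 without sham 1 and sham 2, and lay between -0.15 and 0.081 without 1 library. For wwtr1 it was -0.11 without sham 1 and cryoinjury 2, and -0.014 to 0.31 without 1 library. acta1b gave -0.00360 with median-of-ratios rescaling, -0.64 with array weights, -0.13 with the covariate, -0.42 without sham 1 and cryoinjury 2, -0.74 without sham 1 and sham 2, and -0.67 (without sham 1) to 0.45 (without sham 3), with -0.51 without cryoinjury 3. tcf21 gave 0.12 with array weights and 0.12 without sham 1 and sham 2, tbx18 0.12 without cryoinjury 3, 0.054 without sham 2 and -0.71 without sham 1, myl7 -0.26 with quantile normalization, and pvalb4 -0.92 with array weights and -0.90 without sham 1 and sham 2. Of 56 list medians, 26 kept their sign without each library in turn.

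Same-numbered libraries did not deviate together for numbers 1 and 2 (correlations of deviations -0.14 and -0.16). For number 3 the correlation was 0.33, and the differently numbered cryoinjury 2 and sham 1 reached 0.36. The labels do not say that a number marks a shared animal or day, and the numbers were not taken to pair hearts. With the replicate block, 0 genes were called, and 195 stood higher and 52 lower at an unadjusted p under 0.05.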

Other observations

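Genes of antigen processing divided the libraries in a way that crossed the groups. The immunoproteasome subunit gene psmb8a stood at 7.64, 27.9 and 50.01 FPKM in sham 1, cryoinjury 2 and cryoinjury 3 and was listed at 0 in sham 2, sham 3 and cryoinjury 1. psmb10 was at 4.51, 13.3 and 18.4 FPKM in the first 3 of these libraries and at 0 in the others. psmb9a was at 1.27, 10.3 and 14.3 FPKM there, and at 0.28, 0.13 and 0 FPKM in sham 2, sham 3 and cryoinjury 1. The same libraries were high or at 0 for psmb12 (6.96, 14.4 and 18.2 FPKM, otherwise 0) and for mhc1uka, a class I molecule that presents peptides (10.3, 12.8 and 46.9 FPKM, otherwise 0). mhc1uba, a further class I gene, was at 10.8, 23.4 and 21.1 FPKM against 3.10, 3.70 and 6.43 FPKM in the same order. psmb12 and mhc1uka were picked after their values were seen. Zebrafish are known to carry very different sets of class I and immunoproteasome genes on different haplotypes. The genotype of these fish at this locus was not tested.

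cd28, which encodes a T cell co-receptor, stood at 29.0 FPKM in sham 1 and at 0 to 1.02 FPKM in the other 5 libraries.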
